A study of Mus musculus with 10 samples.

Results

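The genes described here are 8 genes of apoptotic cell uptake, chosen by name from the 24538 gene lines of the count files: the receptors Mertk, Axl and Tyro3, their ligands Gas6 and Pros1, the bridging protein gene Mfge8, and the engulfment genes Elmo1 and Dock1. All 8 were present in the files, and 7 passed the expression filter, a mean of at least 1 FPKM (fragment counts scaled by transcript length and by library size) in either group. Tyro3 did not pass it. The libraries came from macrophages of wild-type C57BL6/J mice, labelled 8 to 10 weeks old. For lung metastases, E0771-LG mouse mammary tumour cells were injected into a tail vein of females of 6 to 8 weeks, and small metastases were dissected and pooled from 2 to 4 mice per sample. Metastasis-associated macrophages (MAMs, 5 libraries) were sorted as positive for F4/80, CD45 and MRC1, LY6C- and large (FSC hi), and were CD11B+ and CD11C-. Resident alveolar macrophages (RAMs, 5 libraries) came from normal lung and passed the same gates but were CD11C+ and CD11B-. Tissue and sort gate therefore changed together and cannot be told apart, and the metastases came from 1 tumour line.

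Mertk, Axl and Tyro3 are receptor tyrosine kinases known together as TAM receptors. They do not bind a dying cell directly: Gas6 and protein S, the product of Pros1, attach to phosphatidylserine exposed on the dying cell and bridge it to the receptor. Macrophages use this route to clear apoptotic cells, and signalling from the receptors restrains inflammatory cytokine production. Mfge8 encodes a separate bridge, which links phosphatidylserine to integrins. The ELMO1 and DOCK1 proteins act together downstream of uptake receptors to activate RAC1, which drives the engulfing membrane. Mouse alveolar macrophages are known for high AXL and MERTK.

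Of the 7 tested genes, 4 differed between MAMs and RAMs at an adjusted p under 0.05 and a fold change over 2, against 30.3% of all 11571 genes tested. Mertk, Axl and Pros1 were lower in MAMs, by 2.97-, 3.10- and 3.48-fold, and Gas6 was higher, by 53.7-fold, a size that RAM 5 alone moved by more than 1.5 times. Of all genes tested 15.1% were lower and 15.3% were higher by the same rule. Mfge8, Elmo1 and Dock1 did not pass the threshold. The same 4 genes were those whose libraries did not overlap between groups, which held for 44.9% of all genes tested. An adjusted p under 0.05 alone was reached by these 4 genes and by 56.2% of all genes tested.

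The promoters of the 4 genes that differed are shown because Axl and Pros1 kept nearly the same pattern over the libraries while Gas6 had the opposite direction. All 8 genes had a promoter in RefSeq (GRCm38.p6), as 9 windows, since Elmo1 had 2. Each window is the 250 bases before the annotated start, read 5′ to 3′ on the strand of the gene, and capitals mark motif letters on either strand.
Mertk (chr2:128698665-128698914, plus strand): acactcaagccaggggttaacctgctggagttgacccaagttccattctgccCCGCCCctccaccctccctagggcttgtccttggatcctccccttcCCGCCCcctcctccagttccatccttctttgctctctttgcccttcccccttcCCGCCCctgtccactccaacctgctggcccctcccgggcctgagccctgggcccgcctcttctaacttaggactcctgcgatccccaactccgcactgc
Axl (chr7:25788734-25788983, minus strand): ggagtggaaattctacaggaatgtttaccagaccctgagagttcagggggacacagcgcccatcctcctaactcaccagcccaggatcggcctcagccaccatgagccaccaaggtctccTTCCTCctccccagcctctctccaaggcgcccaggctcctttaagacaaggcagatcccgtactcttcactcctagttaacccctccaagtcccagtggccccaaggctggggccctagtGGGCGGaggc
Pros1 (chr16:62854057-62854306, plus strand): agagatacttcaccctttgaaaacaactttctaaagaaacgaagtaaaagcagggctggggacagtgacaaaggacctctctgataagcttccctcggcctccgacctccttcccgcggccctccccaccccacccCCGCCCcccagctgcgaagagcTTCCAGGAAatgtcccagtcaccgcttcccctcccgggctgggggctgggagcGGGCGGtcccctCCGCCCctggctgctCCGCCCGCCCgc
Gas6 (chr8:13494536-13494785, minus strand): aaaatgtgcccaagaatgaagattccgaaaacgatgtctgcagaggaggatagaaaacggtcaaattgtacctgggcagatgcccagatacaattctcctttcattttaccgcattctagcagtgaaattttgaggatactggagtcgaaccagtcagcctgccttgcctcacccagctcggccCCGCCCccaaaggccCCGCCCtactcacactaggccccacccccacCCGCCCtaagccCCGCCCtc

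The motif in all 4 windows was the GC box, GGGCGG. It stood 3 times before Mertk, at -198, -152 and -99 from the start, 1 time before Axl, at -10, and 4 times before Gas6, at -66, -51, -20 and -8. Before Pros1 it stood 5 times, at -114, -39, -27, -12 and -8, with the last matches overlapping each other. A GC box was present in 8 of the 9 windows and in 32.7% of 32851 promoter windows of the same length. The core of a PU.1 site, GAGGAA, stood before Axl at -130. PU.1 is a factor that macrophages need, and its core was in 23.3% of all windows and in 3 of these 9. A gamma-activated site, TTCNNNGAA, stood before Pros1 at -92, in 2 of the 9 windows and in 7.02% of all windows. Of the other motifs searched, TATAAA was in 1 of the 9 windows and 12.4% of all. The AP-1 site TGANTCA, the E-box CACGTG, the MAF site TGCTGAC and the interferon-stimulated response element were in 0 of the 9. They were in 6.75%, 6.02%, 3.81% and 2.98% of all windows. No different motifs overlapped. CpG pairs numbered 15 before Pros1, 10 before Gas6, 7 before Mertk and 5 before Axl, against a median of 6 over all windows. The windows thus share the GC box across genes of opposite direction.

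Mertk (GRCm38 chr2:128698956-128802894, plus strand, 19 exons) encodes the receptor best known for clearance of apoptotic cells by macrophages. In CPM, counts scaled to the normalized total of the tested genes in each library, the MAM libraries 1 to 5 had 227, 255, 304, 302 and 248 CPM. The RAM libraries 1 to 5 had 736, 787, 804, 778 and 869 CPM. The highest MAM library lay well under the lowest RAM library, and both groups were narrow. The means were 267 CPM ± 34.3 in MAMs and 795 ± 48.4 in RAMs (SD, n = 5 each). The log2 fold change was -1.57 with a standard error of 0.0894, at an adjusted p of 8.0e-10 (quasi-likelihood test of edgeR, adjusted by Benjamini and Hochberg's method over all genes tested), so that MAMs held 33.6% of the RAM level. In bulk libraries such as these, fewer cells that express a gene and less RNA per cell cannot be told apart.

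Axl (chr7:25757273-25788705, minus strand, 20 exons) encodes the TAM receptor that binds GAS6 most tightly. The MAM libraries 1 to 5 had 812, 649, 547, 419.9 and 521 CPM. The RAM libraries had 1843, 1755, 1762, 1809 and 1965 CPM. All RAM libraries lay above all MAM libraries, and the MAM libraries were more spread, from MAM 1 at the top to MAM 4 at the bottom. On the log2 scale the difference was -1.63 ± 0.135 (standard error), at an adjusted p of 6.5e-08 by the same edgeR test. Its 95% interval, 1.96 standard errors on each side, ran from -1.90 to -1.37 and overlapped that of Mertk, -1.75 to -1.40.

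Tyro3 (chr2:119797733-119818104, plus strand), the TAM receptor prominent in the nervous system, was close to absent. Its raw counts were 55, 0, 81, 37 and 1 in MAMs 1 to 5 and 5, 0, 0, 1 and 0 in RAMs. A count of 0 allows up to 3 counts in a library. Whether both mates of a read pair were counted is not given in the sources used here, so low counts may stand for fewer fragments. MAM 1, MAM 3 and MAM 4 stood above every RAM library, while MAM 2 and MAM 5 did not. The mean was 0.221 FPKM ± 0.232 in MAMs (SD, n = 5) and at most 0.0277 FPKM in any RAM library. Without the expression filter the edgeR fit gave Tyro3 an adjusted p of 0.0301, and leaving out 1 library at a time gave 0.0144 to 0.0811, so this call rests on few reads in single libraries. It was over 0.05 without MAM 1 (0.0507), MAM 3 (0.0811), RAM 2 (0.0596), RAM 3 (0.0597), RAM 4 (0.0535) or RAM 5 (0.0569).

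**Figure D1:**
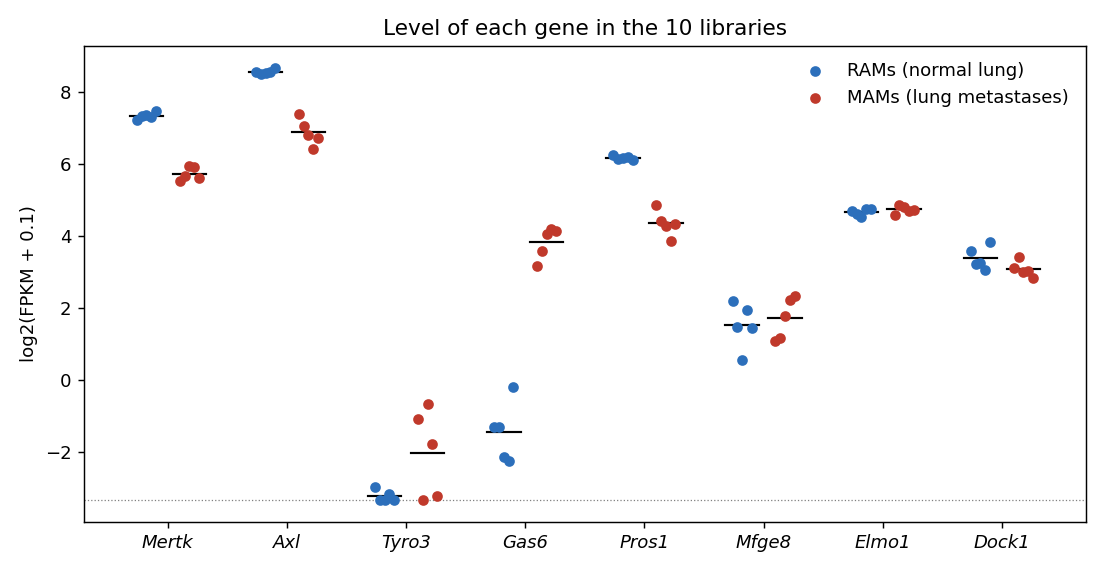
Level of each of the 8 genes in the 10 libraries, as log2(FPKM + 0.1), with blue points for the 5 RAM libraries, red points for the 5 MAM libraries, black lines for group means on this scale and a dotted line at 0 FPKM. Axl and Mertk lead in both groups and are lower in every MAM library, Gas6 is higher in every MAM library, and Elmo1 is level.

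Gas6 (chr8:13465374-13494490, minus strand, 15 exons) encodes a vitamin K-dependent protein that activates all TAM receptors. Its raw counts in the MAM libraries 1 to 5 were 963, 1359, 1642, 2291 and 2822, and its CPM were 19.6, 25.5, 36.7, 41.5 and 40.5. In the RAM libraries the counts were 33, 41, 7, 6 and 75, and the CPM were 0.565, 0.616, 0.145, 0.125 and 1.60. The lowest MAM library lay more than an order of magnitude above the highest RAM library. The means were 32.8 CPM ± 9.73 in MAMs and 0.610 ± 0.598 in RAMs (SD, n = 5 each). On the log2 scale Gas6 was higher by 5.75 ± 0.556 (standard error), at an adjusted p of 3.8e-07 by the same edgeR test, and 3.74% of tested genes had a larger absolute value.

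The size of the Gas6 fold rests on few reads in RAMs. As a share of the MAM mean, the RAM libraries 1 to 5 held 1.73%, 1.88%, 0.443%, 0.382% and 4.88%. The mean was 1.86%. The 10 markers of monocyte-derived macrophages stood in RAMs at 0.892% to 55.8% of their MAM level, with a median of 1.14%, among them Ccr2 at 3.14% and Cx3cr1 at 3.44%. That list holds Itgam, the gene of the sort marker CD11B. Without RAM 5, which held the most Gas6 of the RAM libraries, the log2 fold change was 6.44. With 1% of the level in the other group subtracted before the test, the log2 fold change of Gas6 was 6.41. By limma on log2(FPKM + 1), the scale most affected by low values, 3.54 was found. Exons of Gas6 overlap Tmem255b on the opposite strand, which had at most 1 count in any library.

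Pros1 (chr16:62854307-62929346, plus strand, 15 exons) encodes protein S, which activates MERTK and TYRO3 and is also an anticoagulant cofactor. The MAM libraries 1 to 5 had 112, 78.8, 73.3, 54.0 and 76.3 CPM. The RAM libraries had 292, 269, 269, 279 and 264 CPM. RAM libraries were tightly grouped and all lay above the MAM libraries, of which MAM 1 was highest and MAM 4 lowest. Its log2 fold change was -1.80 ± 0.144 (standard error), at an adjusted p of 4.4e-08 by the same edgeR test, the largest decrease among the 7 genes tested. The ligands thus changed in opposite directions.

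**Figure D2:**
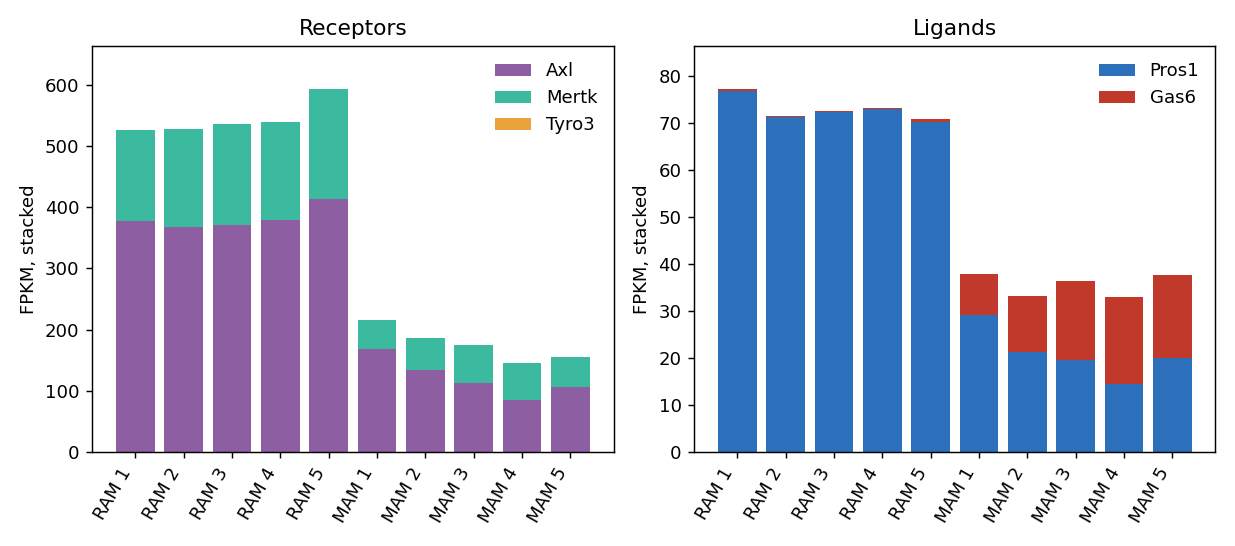
Stacked FPKM of the receptors (left) and of the ligands (right) in each of the 5 RAM and 5 MAM libraries. The summed receptor level is 526 to 592 FPKM in RAMs and 146 to 216 in MAMs, and Gas6 makes up 23.4% to 55.8% of the ligand bars in MAMs but at most 1.11% in RAMs.

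FPKM allow levels to be compared between genes, since they are scaled per length. Summed over Mertk, Axl and Tyro3, receptor FPKM were 176 ± 27.5 in MAMs and 544 ± 27.3 in RAMs (SD, n = 5 each). Axl made up 68.4% ± 7.44 of that sum in MAMs and 70.1% ± 0.974 in RAMs, so the mean split between Axl and Mertk was much the same while the total was lower. The spread of the split was not the same: Axl made up 58.6% to 78.2% in single MAM libraries and 69.2% to 71.6% in RAMs. For the ligands, the sum of Gas6 and Pros1 was 35.7 FPKM ± 2.43 in MAMs and 73.1 ± 2.44 in RAMs. Gas6 made up 41.6% ± 12.4 of it in MAMs, from 23.4% in MAM 1 to 55.8% in MAM 4, and 0.455% ± 0.388 in RAMs. With counts per kilobase of the longest annotated transcript in place of FPKM, the Gas6 share was 35.6% in MAMs and 0.290% in RAMs.

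In RAMs the order of FPKM was Axl (381), Mertk (163), Pros1 (72.7), Elmo1 (25.6), Dock1 (10.7), Mfge8 (3.01), Gas6 (0.330) and Tyro3 (0.00788). No neighbours in that order had overlapping library ranges. In MAMs the order was Axl (122), Mertk (53.8), Elmo1 (27.0), Pros1 (20.9), Gas6 (14.7), Dock1 (8.48), Mfge8 (3.42) and Tyro3 (0.221). There the ranges of Elmo1 and Pros1, of Pros1 and Gas6, and of Gas6 and Dock1 overlapped. Within single MAM libraries, Gas6 was above Dock1 in each, narrowly in MAM 1 (8.88 against 8.62 FPKM). Elmo1 was above Pros1 except in MAM 1, and Pros1 was above Gas6 except in MAM 4. Although lower, Axl and Mertk were still among the more abundant RNAs of MAMs, at the 94.9 and 87.9 percentile of tested genes by FPKM, against 98.9 and 97.2 in RAMs. Gas6 moved from the 4.07 percentile in RAMs to the 61.2 percentile in MAMs.

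Mfge8 (chr7:79133768-79149060, minus strand), the bridge to integrins, was low in both groups and varied widely. The MAM libraries 1 to 5 had 3.68, 3.56, 5.77, 8.02 and 9.02 CPM, and the RAM libraries had 8.03, 4.47, 2.34, 6.70 and 4.43. The groups overlapped over most of their range. The log2 difference was 0.21 ± 0.389 (standard error), at an adjusted p of 0.671 by the same edgeR test, with a 95% interval from -0.55 to 0.97 that leaves room for a change of either sign.

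Elmo1 (chr13:20090596-20608353, plus strand, 22 exons) had the smallest difference of the 7 tested genes. The MAM libraries 1 to 5 had 140.2, 163, 159, 144 and 154 CPM, and the RAM libraries had 149, 136, 128, 154 and 154. The groups overlapped. The log2 difference was 0.08 ± 0.0796 (standard error), at an adjusted p of 0.435 by the same edgeR test, and its 95% interval, -0.08 to 0.23, holds only small changes. Under upper-quartile normalization, which moved the median log2 difference of all genes from -0.02 to -0.18, the value was -0.09. An antisense gene, Gm32036, overlaps exons of Elmo1, and the strand setting of the counting is not given in the sources used here.

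Dock1 (chr7:134670654-135173639, plus strand, 52 exons) had 68.9, 82.6, 63.1, 61.4 and 56.7 CPM in MAMs 1 to 5 and 90.4, 74.3, 73.2, 66.9 and 103 CPM in RAMs. MAM 1 and MAM 2 lay within the RAM range, and the other 3 MAM libraries lay under it. The log2 difference was -0.29 ± 0.134 (standard error), at an adjusted p of 0.0765 by the same edgeR test, with a 95% interval of -0.56 to -0.03 before adjustment. The call depended on single libraries: without MAM 2 the difference was -0.38 (adjusted p = 0.0239, edgeR), and without RAM 4 it was -0.36 (adjusted p = 0.0372, edgeR).

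**Figure D3:**
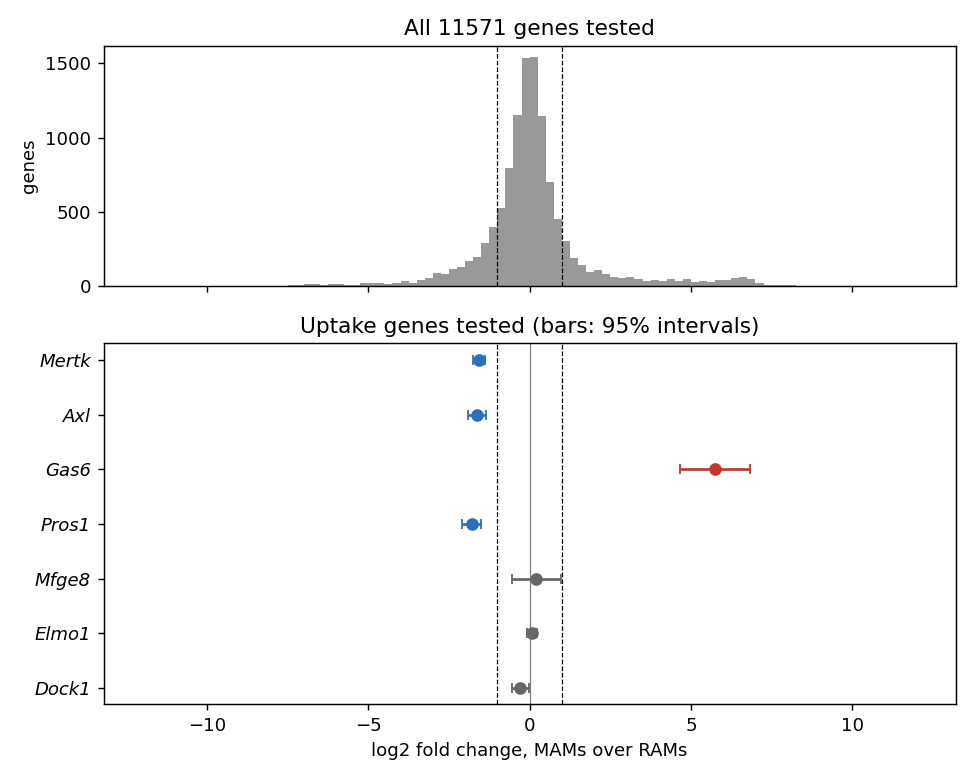
Histogram of log2 fold changes of MAMs over RAMs for all genes tested (top) and the 7 tested uptake genes (bottom), with bars for 95% intervals, dashed lines at a fold change of 2, blue for lower, red for higher and grey for genes that did not pass. Mertk, Axl and Pros1 lie together at -1.57 to -1.80, where 18.5% to 21.1% of genes have a larger absolute change, and Gas6 lies far to the right at 5.75.

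The MAM libraries differed more among themselves than the RAM libraries for some of the genes. The coefficient of variation of CPM was 25.2% in MAMs and 4.67% in RAMs for Axl and 26.6% and 4.03% for Pros1. It was 12.9% and 6.10% for Mertk and 6.34% and 7.97% for Elmo1. From the lowest to the highest MAM library, Pros1 spanned 2.08-fold, Axl 1.93-fold, Gas6 2.12-fold and Mertk 1.34-fold. MAM 1 held the most Axl and Pros1 and the least Gas6 and Mertk, and MAM 4 held the least Axl and Pros1 and the most Gas6. As a share of the RAM mean, Axl was 44.5%, 35.5%, 29.9%, 23.0% and 28.5% in MAMs 1 to 5, and Mertk was 28.6%, 32.1%, 38.3%, 37.9% and 31.2%. Mertk thus did not follow Axl among MAMs.

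Summed markers of some other cells also varied among the MAM libraries. The summed CPM of 10 alveolar macrophage markers were 798, 649.7, 544, 416 and 462 in MAMs 1 to 5, the same order as Axl, and 10755 to 13436 in RAMs. None of the 10 was at 0 in MAMs. The order came mostly from Marco, a scavenger receptor gene, at 389, 319.7, 213, 89.7 and 149 CPM. Marco alone of the list kept the order of Axl. Chil3, a defining marker at 9151 CPM in RAMs, had 108, 118, 110.3, 100.3 and 89.1. Siglecf had 3.58, 4.82, 4.25, 3.53 and 3.09 CPM, and Ear1 had 8.91, 8.66, 9.12, 8.47 and 8.14. In MAMs, Siglecf, Car4, Krt79, Chil3 and Ear1 stood at 1.01% to 1.16% of their RAM level and Ear2 at 1.69%. The other 4 markers stood higher, Itgax, the gene of the sort marker CD11C, at 17.2%, Pparg at 18.2%, Fabp4 at 34.7% and Marco, whose groups overlapped, at 63.0%. Axl at 32.3%, Mertk at 33.6% and Pros1 at 28.7% thus lay within the range of the 10 markers, above 8 of them and under Marco and Fabp4. The summed CPM of 5 platelet markers were 350.5, 522, 787, 873 and 1047 in MAMs 1 to 5, lowest in the library with the least Gas6, and at least 13.4 in RAMs, where the highest library had 17.99. Of these, Pf4 and Ppbp passed the threshold, while Itga2b, Gp1ba and Gp9 had means of 1.68, 0.978 and 0.809 CPM in MAMs and 3.34, 2.49 and 0.880 in RAMs. Fibroblast and pericyte markers summed to 45.8, 8.21, 38.4, 10.5 and 24.8 CPM in MAMs and 3.77 to 9.96 in RAMs, highest in MAM 1, where Gas6 was lowest. Of 3 genes of that list tested, 2 were higher in MAMs, Col1a1 at 5.21 CPM against 0.197 and Pdgfra at 4.24 against 0.188, while Lum was at 0 counts in all MAMs and at most 3 in any RAM library. Summed endothelial markers were 29.1, 59.4, 85.2, 114 and 78.1 CPM in MAMs, against 128 to 215 among RAMs, where Vwf made up most of the sum, at 151 CPM against 19.3 in MAMs. The other 3 tested genes of that list were higher in MAMs: Kdr at 29.0 CPM against 0.948, Pecam1 at 16.6 against 2.28 and Cdh5 at 7.28 against 2.60. Cldn5 was at 0 counts in all MAMs. The part of these cells in the levels of Axl, Pros1 and Gas6 was not tested.

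**Figure D4:**
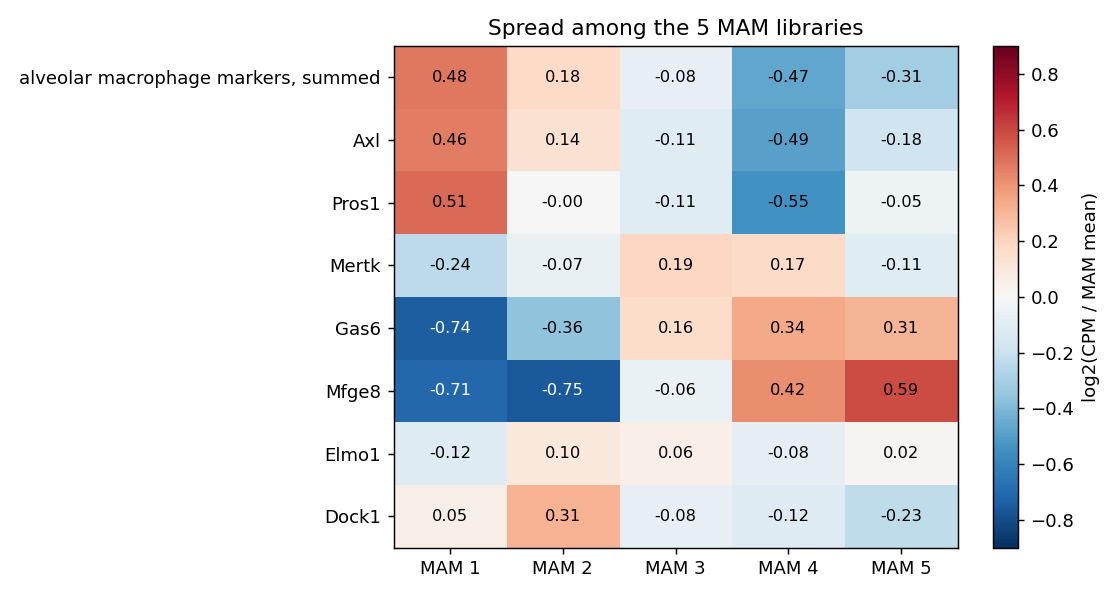
Level in each of the 5 MAM libraries as log2 of the CPM over the mean of the 5, for the 7 tested genes and the summed alveolar macrophage markers, with red for above and blue for below the mean. Axl, Pros1 and the marker sum are high in MAM 1 and low in MAM 4, and Gas6 is low in MAM 1.

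The remaining marker lists bear on all results alike. Counts on genes ran from 55391447 to 87523247 in MAMs and from 50746305 to 72150650 in RAMs. Of 10 markers of monocyte-derived macrophages, 9 were higher in MAMs, and of the 10 alveolar macrophage markers, 9 were lower. Itgam in the first list and Itgax in the second encode CD11B and CD11C, so the sort gate set their direction. Markers of epithelium or tumour cells summed to 10.6 to 24.5 CPM in MAMs, against 590.0 to 702 for RAMs. Krt19, Cdh1 and Epcam made up most of the RAM sum, at 436, 131 and 76.8 CPM. In MAMs they were at 6.09, 5.16 and 0.652 CPM. Krt8, Krt18, Krt7 and Krt14 had higher means in MAMs, at 1.48, 1.81, 0.520 and 0.107 CPM. In RAMs these keratin genes were at 0.0453, 0.119, 0.124 and 0 CPM. The MAM mean of Krt18 came almost wholly from MAM 1, at 8.84 CPM, with at most 0.201 in the other MAM libraries. Krt18 did not pass the adjusted p (0.0715, edgeR). Krt14 also came mostly from MAM 1, at 0.488 CPM, while Krt8 was at 0.615 CPM or more in each MAM library. Lung epithelium markers summed to 22.3 to 39.9 CPM in MAMs, against 28.7 to 49.9 for RAMs. Hopx made up most of the MAM sum, at 21.0 CPM against 1.10 in RAMs. Of 6 genes of that list tested, 4 were lower in MAMs, among them Sftpc at 4.03 CPM against 14.4, and 1, Hopx, was higher. Dendritic cell markers summed to 5.62 to 19.1 and 17.4 to 27.0 CPM, neutrophil markers to 23.2 to 83.1 and 42.9 to 87.3, lymphocyte markers to 13.4 to 26.4 and 4.82 to 19.8, and erythrocyte markers to 2.17 to 5.19 and 1.27 to 5.28, MAMs first in each.

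The genes most like each member were taken as those with the smallest root mean square difference of centred log2 CPM over the 10 libraries. For Axl the nearest gene was Pros1, at 0.122, ahead of Myo7a at 0.139, and for Pros1 it was Axl, ahead of Chp1 at 0.144. Axl and Pros1 thus had the closest pattern to each other among all tested genes, although protein S is given above as activating MERTK and TYRO3. For Mertk the nearest were Ddhd1 (0.113) and Mapk3 (0.127), and Axl stood at 0.332. Gas6 had no close neighbour, with Cbr2 at 0.588 and Treml2 at 0.663. The nearest to Elmo1 were Eif4g1 (0.0666) and Itfg1 (0.0733), to Dock1 Taf8 (0.120) and Polr2b (0.125), and to Mfge8 Tmem42 (0.285) and 1110038F14Rik (0.314). For genes that differ between groups, the group difference enters this measure.

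The wider uptake pathway was described with 112 other genes in 8 lists by role, of which 102 were tested. In these lists 36 were higher and 11 lower at the same thresholds, 46.1% of those tested against 30.3% of all genes. Since the lists were chosen with earlier results of these data known, that share is a description only. They also hold genes used here as markers of the groups, such as C1qa, Cx3cr1 and Pparg. The median log2 fold change was 0.32 over the 102 genes and -0.02 over all genes tested.

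Of 17 other uptake receptors tested, 10 were higher and 1 lower in MAMs, with a median log2 fold change of 1.80. The largest were Timd4, a direct phosphatidylserine receptor, at 133 CPM against 1.09 (log2 fold change 6.92, adjusted p = 8.7e-09, edgeR), and Stab1, another such receptor, at 372 against 3.48 (6.73). Tyrobp, an adaptor for activating receptors and the most abundant of the list, was at 2224 FPKM in MAMs and 1968 in RAMs and passed the adjusted p but not the fold. Scarb1, a scavenger receptor, was the gene lower by both thresholds. Havcr2 (-0.81) and Cd300lf (-0.35) were lower past the adjusted p but not the fold. Among the integrin partners of MFGE8, chosen after their values were seen, Itgav rose by 1.76 and Itgb3 by 2.37 on the log2 scale, with overlapping groups for Itgb3, and Itgb5 had -0.28 (adjusted p = 0.0817, edgeR).

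Of 8 other bridging molecules tested, 4 were higher and 0 lower, with a median of 3.73. C1qa and C1qb, chains of complement C1q, which can tag dying cells, had log2 fold changes of 6.81 and 6.78, and C1qb was the most abundant of the list in MAMs. In RAMs, C1qb was at 25.3 FPKM, and Lgals3 was the most abundant, at 402 FPKM. The others were C1qc (6.63) and Thbs1 (6.74), the gene of thrombospondin, both chosen after their values were seen. By FPKM, C1qb was at 2681 in MAMs, far above Gas6 and Pros1.

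Of 19 genes of engulfment signalling tested, 3 were higher and 1 lower, with a median of 0.36, although 18 had an adjusted p under 0.05. Ptk2, the gene of focal adhesion kinase, rose by 4.79 and Bcar1, an adaptor, by 4.54 on the log2 scale, the latter from low levels with overlapping groups. Rac1, the target of ELMO1 and DOCK1 and the most abundant of the list, was at 865 CPM in MAMs and 1113 in RAMs (log2 fold change -0.36, adjusted p = 1.2e-04, edgeR). Relatives of the members, chosen after their values were seen, varied. Elmo2 had -0.21 and did not pass the adjusted p. Dock2 (0.19), Elmo3 (-0.78) and Dock4 (-0.68) passed the adjusted p but not the fold, and Dock5 fell by 2.03.

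Of 18 genes of the phagosome and digestion, 3 were higher and 1 lower, with a median of 0.06. Map1lc3a, which encodes an LC3 protein of autophagy, fell by 2.84, and Slc29a3, a lysosomal nucleoside transporter, rose by 2.34 on the log2 scale. Lamp1, the most abundant, had a log2 fold change of 0.69. Of 14 genes of lipid sensing and efflux, 4 were higher and 3 lower, with a median of -0.19. Apoe, which carries exported cholesterol, was at 944 CPM in MAMs and 29.5 in RAMs (log2 fold change 5.00), while the exporter Abcg1 was at 456 and 3192 (-2.81). Ucp2 had -0.78 and was the most abundant over all libraries, although Apoe was slightly above it in MAMs (1165 against 1139 FPKM). The sensors Nr1h3 (1.31) and Pparg (-2.45) and the exporter Abca1 (1.58), chosen after their values were seen, also went both ways.

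Of 8 sensors of find-me signals, 4 were higher and 2 lower, with a median of 1.48. S1pr1, a sphingosine 1-phosphate receptor, rose by 5.00, Cx3cr1, the fractalkine receptor, by 4.87, and the most abundant, P2ry6, had 0.90. Of 8 brakes on uptake, 2 were higher and 2 lower, with a median of -0.78. Cd22 fell by 2.92, Pecam1 rose by 2.86 with overlapping groups, and Sirpa, the receptor for the don't-eat-me signal CD47 and the most abundant, was at 883 CPM in MAMs and 1690 in RAMs (-0.94, past the adjusted p but not the fold).

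Of 10 genes of feedback and shedding of TAM receptors tested, 6 were higher and 1 lower, with a median of 1.90. Twist1, a repressor induced downstream of Axl, rose by 5.44 on the log2 scale, from 0.0245 CPM in RAMs, and Socs3, a brake on cytokine signalling that TAM receptors are known to induce, rose by 4.43, from 4.13 to 88.8 CPM. Ifnar2, a chain of the interferon receptor with which TAM receptors cooperate, had 1.88 and was the most abundant in MAMs, while Vkorc1 was slightly above it in RAMs (78.6 against 70.2 FPKM). The genes for the enzymes that supply vitamin K-dependent carboxylation, which Gas6 and protein S need, were chosen after their values were seen: Vkorc1 fell by 1.26 on the log2 scale, and Ggcx had -0.97, past the adjusted p but not the fold. The sheddases of MERTK and AXL, Adam17 and Adam10, had 0.47 and 0.88, likewise past the adjusted p but not the fold.

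**Figure D5:**
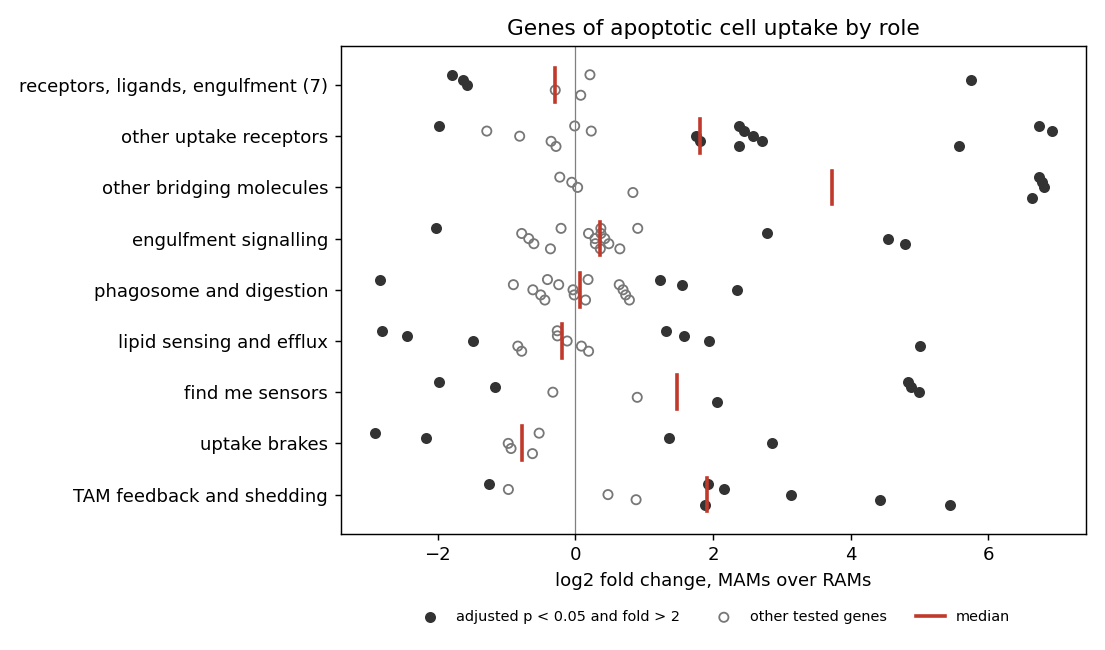
Log2 fold change of MAMs over RAMs for the 7 tested genes (top line) and for the 102 tested genes of the 8 pathway lists, each point a gene, filled where adjusted p was under 0.05 and the fold change over 2, with a red line at the median of each list. Other bridging molecules have a median of 3.73, other uptake receptors 1.80 and uptake brakes -0.78.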

How the data were processed

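Counts of 5 MAM and 5 RAM libraries were used as the authors deposited them, without normalization. The authors aligned reads with TopHat2 2.0.13 to GRCm38 and counted them with HTSeq 0.6.1 on UCSC RefGene models, per the labels. FPKM were deposited by the authors from Cufflinks 2.2.1. Counts assigned to no gene made up 54.6% to 58.3% of the total in MAM libraries and 62.2% to 64.1% in RAM libraries. These counts were dropped before testing. Their share did not overlap between the groups, and its part in the differences between MAMs and RAMs was not tested. The 11571 genes with a mean of at least 1 FPKM in either group were tested with edgeR 4.0.16 (R 4.3.3), TMM normalization and the quasi-likelihood test, with Benjamini-Hochberg adjustment. Genes were called at an adjusted p under 0.05 and a fold change over 2. Per the methods of the authors, a sample was a single mouse or metastases pooled from several mice.

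The members and lists were chosen with earlier results of these data known. Named genes were the members, the 2 largest called changes and the most abundant gene of each list, and the 2 genes nearest to each member. Gene positions came from GENCODE M21. Alternatives were DESeq2 1.42.0, limma 3.58.1 on log2(FPKM + 1) and log2(FPKM + 0.1), RLE and upper-quartile scaling, other filters, a test against a fold change of 2, 1% subtraction, a replicate block and each library left out. Fits of Tyro3 without a filter that left out 1 library were added after seeing the data. On simulated data for MAMs against RAMs (11571 genes), edgeR recovered 78% of 100 genes changed by 1.5 and 95% of 100 changed by 3 on the log2 scale, with 11 false calls. Calls there used the adjusted p under 0.05 alone, without the fold rule. Far fewer genes were changed than the 30.3% called in the data, so these rates need not hold for the data. The limit of 3 counts covers counting error only, since reads carry no molecular identifiers. Figures were drawn with matplotlib 3.10.9.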

Additional observations from a re-analysis of the deposited data

Results flagged for a closer look

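Of 16 groups of library values screened, 2 per gene for 8 genes, 1 held a library far from the others, and chance gives about 1 in 20. Tyro3 was at 0.0856 CPM in RAM 1, from 5 counts, while the other 4 RAM libraries lay between 0 and 0.0209 CPM. The gap was 0.756 of the whole range.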

How the results depend on the processing

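Mertk, Axl, Pros1 and Gas6 kept their direction and call under all 20 alternatives, with log2 fold changes of -1.74 to -1.52, -1.80 to -1.53, -1.97 to -1.69 and 3.54 to 6.44. The low value of Gas6 came from log2(FPKM + 1) and the high value, 6.44, from leaving out RAM 5. Whichever library was left out, 4 of the 7 tested genes remained called. Over the 7 genes, 136 of 140 alternatives kept the direction and the side of the threshold. Elmo1 reversed to -0.088 (adjusted p = 0.358, edgeR) under upper-quartile normalization, where the median of all genes moved from -0.02 to -0.18. Dock1 passed the adjusted p under the same normalization, at -0.46 (adjusted p = 0.00759, edgeR), and without MAM 2 or RAM 4, in a range of -0.38 to -0.20 over the libraries left out. Tyro3, fitted without a filter at 4.93, ranged from 4.26 to 6.63 without 1 library. It lost its call in 6 of 10 cases, without MAM 1 (4.72), MAM 3 (4.26), RAM 2 (4.62), RAM 3 (4.65), RAM 4 (4.93) or RAM 5 (4.65). The count of called genes was 2511 to 4672, against 3511. Same-numbered libraries deviated with correlations of -0.0366 to 0.0294, and 2 of 5 MAM libraries correlated best with their own number. These values gave no clear sign of pairing by number, and with 5 libraries per group they cannot exclude it. With the replicate block 3526 genes were called, and Mertk, Axl, Pros1 and Gas6 had -1.58, -1.67, -1.84 and 5.99. In RAMs, Tyro3 and Gas6 had at most 5 and 75 counts per library, so their levels there rest on few reads. These are fewer fragments if mates were counted separately.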
